A study of Saccharomyces cerevisiae with 19 samples.

Results

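The cytosolic ribosomal protein genes of the large subunit were examined in budding yeast, Saccharomyces cerevisiae. They were the genes whose standard name is RPL followed by a number, with or without the letter A or B. Counted in this way, and with 1 protein's pair of copies and the acidic stalk genes (RPP) left out, there were 74 such genes among 5758 in the count tables. Of these, 10 are single-copy genes and 64 form 32 pairs of A and B copies, so that they stand for 42 proteins encoded on 14 chromosomes. The choice rested on names alone, and all 74 genes had reads in every library.

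The large subunit joins amino acids at the peptidyl transferase centre, which is made of ribosomal RNA, and guides the growing chain through an exit tunnel lined and rimmed by proteins. In growing yeast the ribosomal protein genes are among the most heavily transcribed and translated genes, and their transcripts are short. Most of them were kept as A and B copies after a duplication of the whole genome, and the copies encode the same or nearly the same protein.

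Ribosome-protected fragments (footprints) and mRNA were sequenced in 19 libraries to compare ways of joining adapters to RNA fragments, with and without random bases in the oligonucleotides. All came from wild-type BY4741, a laboratory strain of mating type a, grown in YPD to an OD600 of 0.4, treated with cycloheximide for 1 min, filtered, frozen and lysed with 100 μg/ml of the drug. Cycloheximide stops elongating ribosomes, and footprints of 28 to 32 nt were taken from monosomes after digestion with RNase I. The footprint groups were DualLigation (n = 3), 4+3N low, Nonrandom low, 4+3N, 4N and Nonrandom (n = 2 each), and the mRNA groups were 4+3N, 4N and Nonrandom (n = 2 each). The labels do not give the oligonucleotides behind these names, the meaning of low, or whether replicates were separate cultures, so p-values measure the spread between these libraries, which may be technical. Groups and replicate numbers follow the sample titles. Other labels of 4N and 4+3N differ from these titles, and 1 sample titled 4+3N replicate 2 is elsewhere labelled replicate 1. Comparisons of these preparations and the use of replicate numbers rest on the titles.

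Total counts ran from 6906778 to 11656814 in the 6 standard footprint libraries (4+3N, 4N and Nonrandom), from 6735945 to 13478946 in DualLigation, from 827353 to 2667016 in the low libraries and from 1838817 to 3497303 in mRNA. The 74 genes held 9.49% to 9.92% of the reads in standard footprint libraries and 9.05% to 9.99% in mRNA libraries. DualLigation stood apart, with 9.50% of reads in replicate 1 but 5.78% and 5.25% in replicates 2 and 3. The table of Nonrandom footprint replicate 1 lists 5559 genes a second time with other counts. The second list was used here, and the main comparisons below that include this library say which members' calls held with the first. Summed copies, tests of differences between preparations, edgeR fits with a replicate block and counts for other gene sets used the second list only. The receptor gene STE2 of a cells had 123 to 797 counts per 1000000 reads (CPM), whereas the alpha-cell genes STE3 and MF(ALPHA)1 had at most 7.61 and 0.436 CPM. The other markers were less clear-cut. The a-cell genes MFA1 and MFA2 ran from 1.47 to 248 and from 13.2 to 312 CPM. The alpha-cell gene MF(ALPHA)2 reached 11.6 CPM and had reads in 13 of 19 libraries. Of the strain markers checked for BY4741, HIS3 had 58.3 to 123 CPM and reads in all 19 libraries. LEU2 had reads in 1 library, at 0.130 CPM, and MET17 and URA3 were not listed under these names.

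Across the 3 preparations sequenced in both assays, most large-subunit genes had more footprints per mRNA read than the median gene. Of the 74 genes, 48 rose in footprints over mRNA and 17 fell (edgeR's quasi-likelihood test with Benjamini-Hochberg adjustment over all genes, adjusted p under 0.05). Over all 5523 genes tested, 84.7% passed, 40.2% up and 44.5% down, so that the share of risers was above the background and the share of fallers below it. The median log2 fold change was 0.56 over the 74 genes and −0.04 over all genes. At a fold of 1.5 or more, 34 rose (22.3% of all genes) and 9 fell (29% of all genes). With the first list of Nonrandom footprint replicate 1 in place of the second, 9 members rose and 9 fell, and 47 of the 65 calls were lost, with the same sign in 63 of the 65. The rises of RPL26B and RPL42A turned to −0.05 and −0.12. The rises that held were those of RPL39, RPL32, RPL6B, RPL16A, RPL17A, RPL12B, RPL11B, RPL14B and RPL36A, and the falls were those of RPL1A, RPL1B, RPL4A, RPL4B, RPL35A, RPL35B, RPL41A, RPL18B and RPL21B. All other edgeR calls of single members for footprints over mRNA named below were lost with the first list.

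These directions are relative to the other genes, because libraries were scaled by TMM, a method that centres most genes on no change. With library totals in its place the median of all genes moved to −0.59, and 29 members rose and 32 fell. The shares of all genes rising or falling under library totals are not given here, so these counts have no background beside them. The distance of the members' median from that of all genes was 0.60 under TMM, size factors of the RLE kind and library totals, and 53 of the 74 lay above the median gene under each of these scalings. Levels in the next paragraphs are normalised CPM, that is CPM scaled by the TMM factors, given as the lowest, median and highest of 6 libraries. Levels of single genes depend on gene length and are compared between assays only.

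**Figure D1:**
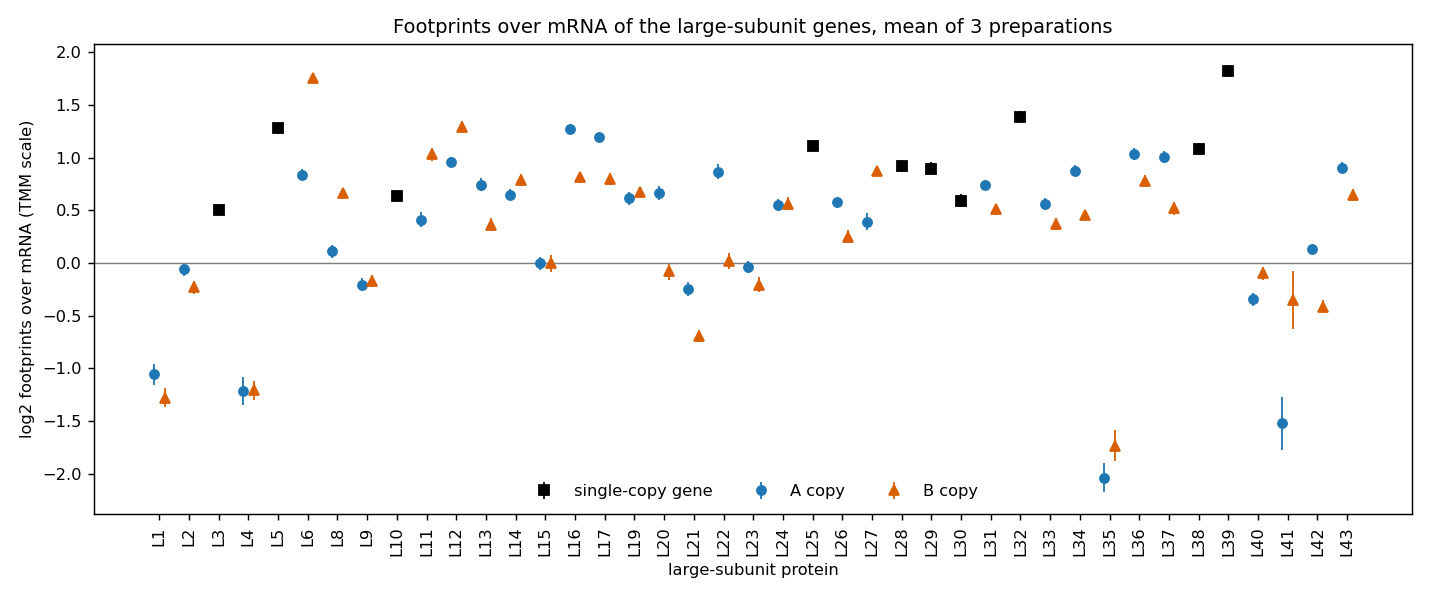
The log2 ratio of footprints to mRNA (TMM scale) is plotted by protein number for 72 genes of 41 proteins, with squares for single-copy genes, circles for A copies, triangles for B copies and bars for the standard error. All 10 single-copy genes lie above 0, from 0.51 for RPL3 (−0.04 with library totals) to 1.82 for RPL39, and the copies of RPL1, RPL4 and RPL35 and RPL41A lie at −1.06 or below.

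All 10 single-copy genes rose in footprints over mRNA, with a median log2 fold change of 1.00, against 38 rising and 17 falling among the 64 paired genes with a median of 0.43. With library totals 7 of the 10 rose and 0 fell, RPL3, RPL10 and RPL30 did not pass, and among the paired genes 22 rose and 32 fell with a median of −0.12. With the first list of Nonrandom replicate 1, RPL39 and RPL32 were the 2 single-copy genes that passed, and all 10 log2 changes stayed above 0. RPL39, a very small protein inside the exit tunnel, had the highest ratio of all members. It had 1546, 1684 and 1726 normalised CPM in footprints, against 384, 481 and 552 in mRNA. The libraries of the assays did not overlap, and the log2 fold change was 1.82 (SE 0.06, adjusted p = 8.59e-16). RPL32 followed among the single-copy genes with 3935, 4604 and 4831 normalised CPM in footprints, against 1626, 1685 and 1826 in mRNA. Its change of 1.39 (SE 0.05, adjusted p = 1.69e-14) again separated every footprint library from every mRNA library.

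The single-copy genes with roles at the tunnel exit and at the central protuberance also lay high. RPL25, which forms a docking site for factors at the tunnel exit, had 4135, 4253 and 4353 normalised CPM in footprints, against 1869, 1909 and 2138 in mRNA. RPL5, which carries the 5S ribosomal RNA into the subunit, had 5512, 5596 and 5796 in footprints, against 2190.4, 2298 and 2505 in mRNA. Both had changes of over 2-fold, 1.12 (SE 0.05) for RPL25 and 1.28 (SE 0.05) for RPL5. The small protein RPL38 had 2025, 2179.6 and 2318 normalised CPM in footprints, against 917, 1014 and 1155 in mRNA, a change of 1.08 (SE 0.06). RPL28, in which mutations give resistance to cycloheximide, had 4284, 4341 and 4472 in footprints, against 1890.5, 2258 and 2753 in mRNA, and its change was 0.92 (SE 0.06). In each of these 4 genes the footprint libraries all lay above the mRNA libraries.

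The remaining single-copy genes had the smaller rises. RPL29, a small late-joining protein, had 1428, 1568 and 1720.2 normalised CPM in footprints, against 782, 819 and 997 in mRNA (log2 fold change 0.90, SE 0.06). RPL10, which joins late in cytoplasmic maturation and reaches towards the peptidyl transferase centre, had 6438, 7078 and 7445 in footprints, against 4126, 4433 and 4853 in mRNA (0.64, SE 0.05). RPL30 is known for binding its own transcript and holding back its splicing. It had 2033, 2472 and 2529 normalised CPM in footprints, against 1454, 1563 and 1694 in mRNA (0.59, SE 0.06). RPL3, a large protein that reaches the peptidyl transferase centre, lies on chromosome XV at positions 444686 to 445849 of the R64 assembly and had 8897, 9283 and 10001 in footprints, against 6278, 6533 and 7055 in mRNA (0.51, SE 0.05). The order of the 10 single-copy genes by ratio was RPL39, RPL32, RPL5, RPL25, RPL38, RPL28, RPL29, RPL10, RPL30 and RPL3. The neighbours RPL25 and RPL38, RPL28 and RPL29, and RPL10 and RPL30 lay within 1 standard error of each other and are not told apart. No test between genes was run, so the rest of the order is a description only. With the first list of Nonrandom replicate 1 the median SE of the 10 genes was 0.46, against 0.06 with the second.

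Among the pairs, those around the peptidyl transferase centre and the tunnel split into groups. RPL17, which forms part of the tunnel's constriction, rose in both copies, with RPL17A at 1957, 2177 and 2214 normalised CPM in footprints, against 859, 939 and 1013 in mRNA. Its log2 fold changes were 1.20 (SE 0.05) for A and 0.80 (SE 0.06) for B. At the rim of the exit, RPL19, RPL26 and RPL31 also rose in both copies, from 0.25 for RPL26B to 0.74 for RPL31A. With library totals RPL26B fell and RPL19A, RPL26A and RPL31B did not pass. RPL2, which lies close to the peptidyl transferase centre, did not rise in either copy. RPL2A had 1046, 1176 and 1356 normalised CPM in footprints, against 1186, 1238 and 1329 in mRNA, and did not pass (−0.06, adjusted p = 0.384), although it fell with library totals. RPL2B had 1913, 2056 and 2365 in footprints, against 2389.7, 2453 and 2644 in mRNA, and fell (−0.23, SE 0.06, adjusted p = 0.00177). RPL4, which also reaches into the tunnel, and RPL35, at its exit, were far lower in footprints and are described below.

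Of the other pairs with fixed roles, RPL12, at the base of the acidic stalk where translation factors bind, rose most. RPL12B had 2659.7, 2748 and 2839 normalised CPM in footprints, against 997, 1126 and 1228 in mRNA (1.29, SE 0.05), and RPL12A changed by 0.96 (SE 0.05). RPL11, the partner of RPL5 in the 5S particle, rose by 1.03 (SE 0.06) in the B copy and by 0.41 (SE 0.07) in the A copy, although RPL11A did not pass with library totals. RPL24, which takes the place of the maturation factor RLP24 late in assembly, rose by 0.55 and 0.56 in A and B, and neither passed with library totals. The RPL42 copies, part of the pocket that cycloheximide occupies, went opposite ways under TMM with the second list, but not with library totals or the first list. RPL42A had 330.1, 360.2 and 397 normalised CPM in footprints, against 316, 322 and 380.1 in mRNA (0.14, SE 0.05, adjusted p = 0.0156). It fell with library totals, and with the first list its change was −0.12 and did not pass. RPL42B had 359, 373 and 421 in footprints, against 459, 488 and 573 in mRNA, and fell (−0.41, SE 0.06, adjusted p = 3.42e-06). RPL40, which is made as a fusion to ubiquitin, fell in the A copy (−0.35, SE 0.06), and RPL40B did not pass (−0.10, adjusted p = 0.140) but fell with library totals.

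Outside these roles, the largest rises were those of RPL6B and RPL16A. RPL6B had 1582, 1615 and 1758 normalised CPM in footprints, against 464, 482 and 510.1 in mRNA (1.76, SE 0.05, adjusted p = 1.10e-16). RPL16A had 1462, 1510.2 and 1658 in footprints, against 595, 635 and 682 in mRNA (1.27, SE 0.05, adjusted p = 8.32e-15). In both genes every footprint library lay above every mRNA library, and both rose under all 3 scalings. RPL18B fell, with 143, 149 and 153 normalised CPM in footprints, against 254, 267 and 328 in mRNA (−0.92, SE 0.06, adjusted p = 2.60e-11). By copy, 20 A copies rose and 8 fell (median 0.56), and 18 B copies rose and 9 fell (median 0.37), out of 32 each. With library totals the balance turned, with 12 A copies rising and 14 falling and 10 B copies rising and 18 falling.

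The lowest ratios belonged to the copies of RPL1, RPL4, RPL35 and RPL41, a set named here after its values were seen. Of these 8 genes 7 fell in footprints over mRNA and 0 rose, whereas 48 of the other 66 rose and 10 fell. With library totals all 8 fell, and of the other 66 members 29 rose and 24 fell. RPL35A had 4.13, 13.7 and 38.2 normalised CPM in footprints, against 27.8, 65.3 and 84.1 in mRNA (−2.04, SE 0.14, adjusted p = 6.31e-11). RPL1B, of the mobile stalk next to the tRNA exit site, had 34.7, 51.2 and 80.6 in footprints, against 85.7, 132 and 194 in mRNA (−1.28, SE 0.09, adjusted p = 1.05e-10). RPL4A had 94.5, 149.7 and 251 normalised CPM in footprints, against 309.6, 363 and 418 in mRNA (−1.21, SE 0.13, adjusted p = 8.29e-08). The libraries of the assays did not overlap for RPL1B and RPL4A but overlapped for RPL35A, whose levels differed widely between preparations.

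RPL41, the shortest protein of the ribosome, had the fewest reads of any pair in each of the 6 standard footprint and 6 mRNA libraries. RPL41A lies on chromosome IV at 130407 to 130484 and RPL41B at 221724 to 221801 (R64), each with a coding length of 78 bp and no intron. RPL41A had 1.36, 6.16 and 21.2 normalised CPM in footprints, against 2.53, 25.6 and 45.8 in mRNA, and fell (−1.52, SE 0.25, adjusted p = 1.74e-05). RPL41B had 1.15, 5.64 and 23 in footprints, against 0.721, 18 and 23.7 in mRNA, and did not pass (−0.35, adjusted p = 0.238). The libraries of the assays overlapped for both copies, and the lowest of all, mRNA of Nonrandom replicate 2, held 3 reads of RPL41B.

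The sources do not say whether reads matching more than 1 gene were kept, so levels of genes with a like copy are uncertain, and so is the split of reads between an A and a B copy. With reads of A and B copies summed over every such pair of the table before the fit, 30 of the 42 proteins rose and 10 fell, against 40.5% rising and 44.4% falling among 5463 genes or sums. The median was 0.61 over the proteins. L35, L4, L1 and L41 were still lowest as sums, at −1.92, −1.20, −1.18 and −1.03, values into which the division of reads between copies does not enter. The sums do not recover reads that were left out because they align to both copies.

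Per coding length, the proteins encoded by intronless genes could be set side by side, since the gene spans of the others include introns. These were 24 genes for 15 proteins, with A and B reads summed, in RPKM, that is CPM per kb of coding length. L32 had 9442 ± 588 RPKM in footprints (SD, n = 6) and L10 8676 ± 489.8, followed by L38 at 7549 ± 371 and L12 at 7472 ± 382. In mRNA the highest was L10 at 8163 ± 513, then L3 at 6823 ± 182 and L15 at 5818 ± 406. L38 and L12 lay within their SDs of each other in footprints. The lowest of the 12 proteins other than L1, L4 and L41 was L11, the partner of L5, at 1579 ± 130.3 in footprints and 1481 ± 146 in mRNA, while L5 itself had 5198 ± 112 in footprints and 3138 ± 161 in mRNA. These 12 proteins, parts of the same particle, spanned 5.98-fold in footprints and 5.51-fold in mRNA.

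L1, L4 and L41 lay far below that range. L1 had 120.5 ± 42.6 RPKM in footprints and 406 ± 143 in mRNA, L4 had 181 ± 50.3 in footprints and 610.5 ± 73.4 in mRNA, and L41 had 191 ± 181 in footprints and 564 ± 414 in mRNA. With these 3 the range over the 15 proteins was 78.4-fold in footprints and 20.1-fold in mRNA.

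**Figure D2:**
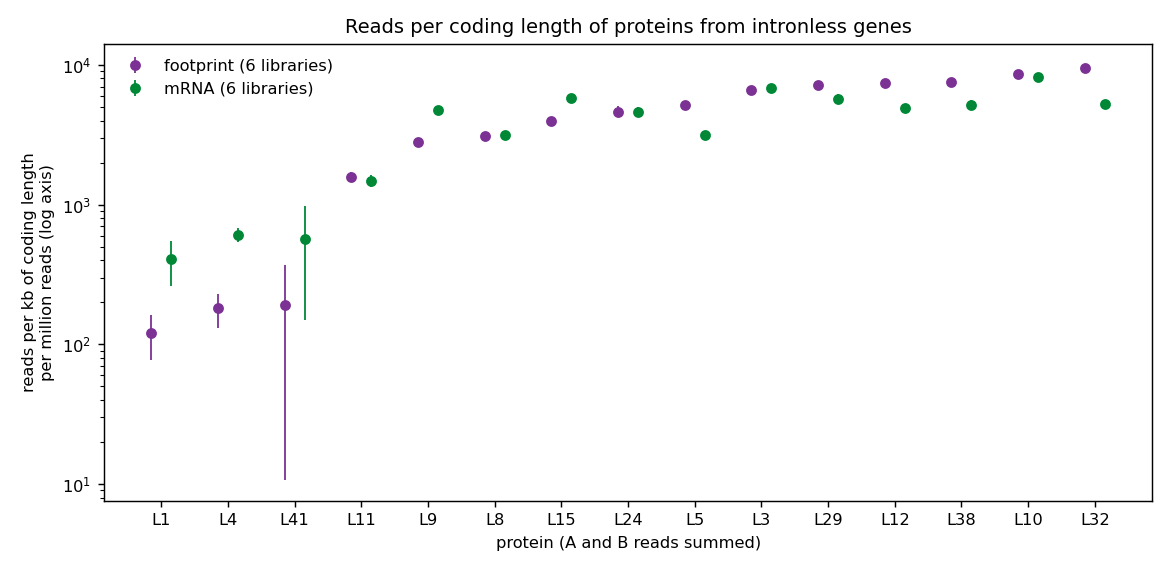
RPKM values (CPM per kb of coding length) are plotted on a log axis for 15 proteins encoded by intronless genes, as mean and SD of 6 footprint (left) and 6 mRNA (right) libraries. L1, L4 and L41 lie at 120 to 191 in footprints and 406 to 610 in mRNA, below the 12 other proteins at 1579 to 9442 in footprints and 1481 to 8163 in mRNA.

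The A and B copies of most pairs were read unequally, and the same copy led in both assays in 30 of 32 pairs. The A copy was the higher one in 19 pairs in footprints and in 19 in mRNA. Within footprints the same copy led in all 6 libraries in 29 pairs, and within mRNA in 30. The copies were at least 2-fold apart in 11 pairs in footprints and in 15 in mRNA. Across the 32 pairs the log2 ratio of A to B in footprints followed that in mRNA with a Pearson r of 0.96, and 0.93 without RPL15, as a description over pairs that share their libraries.

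The most unequal pair was RPL15, whose A copy held 98.3% of the pair's reads in both assays. Its log2 ratio of A to B was 5.88 ± 0.07 in footprints and 5.88 ± 0.21 in mRNA (SD, n = 6 each), and no difference between the assays passed (adjusted p = 0.952). RPL22 followed with 4.06 ± 0.08 in footprints and 3.21 ± 0.07 in mRNA. RPL9 favoured A by 1.91 ± 0.04 in footprints and 1.94 ± 0.09 in mRNA, RPL31 by 1.77 ± 0.06 in footprints and RPL27 by 1.8 ± 0.10 in mRNA. The largest ratios in favour of B were those of RPL8 in footprints (−1.58 ± 0.12) and RPL36 in mRNA (−1.48 ± 0.19). At the other end, RPL42 (−0.05 ± 0.09), RPL20 (0.06 ± 0.09), RPL41 (−0.09 ± 0.47), RPL6 (0.34 ± 0.01) and RPL1 (−0.39 ± 0.24) had the most equal copies in footprints. In mRNA these were RPL37 (0.02 ± 0.10), RPL21 (0.11 ± 0.07), RPL12 (−0.31 ± 0.05), RPL19 (−0.33 ± 0.04) and RPL24 (0.48 ± 0.06).

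The ratio of A to B needs no scaling between libraries, and it differed between footprints and mRNA in 24 of the 31 pairs that could be tested. The test was an exact two-sided permutation test over 6 footprint and 6 mRNA libraries, with 924 regroupings, a smallest possible p of 0.00216 and adjustment over all 60 tested pairs of A and B genes in the tables. It treats the 6 libraries of an assay as exchangeable, although libraries with equal replicate numbers deviated together. Of those 60 pairs, which include the 31 large-subunit pairs, 71.7% passed, a share close to that among the large-subunit pairs. Of the 29 other pairs 19 passed, and the 2 sets were not tested against each other. The A copy was favoured in footprints in 17 of the 24 and the B copy in 7. The libraries of the assays did not overlap in 18 of 32 pairs, against 56.7% of the 60. A difference of at least 0.2 on the log2 scale passed in 21 pairs (61.7% of the 60). The median absolute difference was 0.32 in large-subunit pairs and 0.21 in the 29 other pairs.

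The largest difference was that of RPL6, where the A copy led by 0.34 ± 0.01 in footprints and by 1.26 ± 0.06 in mRNA. Footprint libraries ran from 0.33 to 0.35 and mRNA libraries from 1.20 to 1.36, without overlap, and the difference (footprints minus mRNA) was −0.92 (exact permutation test, p = 0.00216, adjusted p = 0.00382). RPL22 lay at 3.96 to 4.20 in footprints and at 3.10 to 3.28 in mRNA, with a difference of 0.85. Its A copy was thus favoured further in footprints than in mRNA. RPL20 was led by neither copy in footprints (−0.05 to 0.20) and by B in mRNA (−0.80 to −0.55), a difference of 0.75. RPL11 (0.50 ± 0.17 in footprints, 1.11 ± 0.10 in mRNA) and RPL8 (−1.58 ± 0.12 in footprints, −1.03 ± 0.10 in mRNA) both lay further towards the B copy in footprints, by −0.62 and −0.56. The last 4 pairs had the same p and adjusted p as RPL6 in the exact permutation test (n = 6 each). With the first list of Nonrandom replicate 1, RPL22 (0.44, adjusted p = 0.414) and RPL8 (−0.40, adjusted p = 0.0854) did not pass.

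The 7 tested pairs that did not pass included RPL15, RPL4, RPL9, RPL14, RPL19 and RPL24, with differences from −0.14 to 0.01, and RPL1 (0.22, adjusted p = 0.0779). RPL41 was not tested, as 1 library held 3 reads of a copy. With signs flipped within libraries of the same preparation and number, 22 pairs passed, where 64 permutations allow a smallest p of 0.03125.

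**Figure D3:**
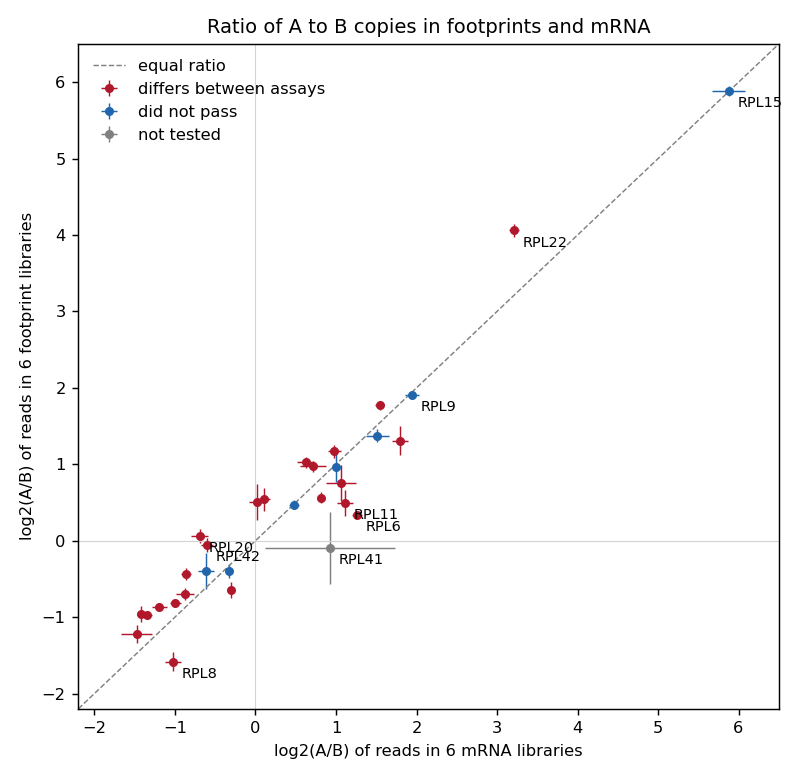
Each of 31 points is a pair, with its mean log2 ratio of A to B reads in 6 mRNA libraries on the horizontal axis and in 6 footprint libraries on the vertical axis, bars for SDs and colour for the exact permutation test. Pairs lie along the line of equal ratios, with RPL6, RPL11 and RPL8 below it and RPL22 and RPL20 above it.

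The 4+3N preparation had more reads of copies of RPL1, RPL35 and RPL41 than Nonrandom, in footprints and in mRNA, and differed less in the other members. In footprints of 4+3N over Nonrandom 5 members rose and 0 fell, where 0.304% of all genes tested changed, 0.266% up and 0.038% down. They were RPL41A, RPL41B, RPL35A, RPL35B and RPL1A. RPL41A had 14.4 and 17.5 normalised CPM in the 4+3N libraries, against 1.12 and 1.21 in Nonrandom (log2 fold change 3.77, SE 0.25, adjusted p = 6.81e-05). RPL41B had 13.6 and 19 in 4+3N, against 0.950 and 2.43 in Nonrandom (3.35, SE 0.31, adjusted p = 0.000852). For both, the 4+3N libraries lay far above the Nonrandom libraries, which held 11 to 22 reads of each gene. RPL35A had 31.6 and 25.8 normalised CPM in 4+3N, against 5.36 and 3.42 in Nonrandom (2.67, SE 0.31, adjusted p = 0.00455), and RPL35B changed by 2.28 (SE 0.33, adjusted p = 0.0242). RPL1A had 64.5 and 41.4 in 4+3N, against 23.7 and 19.2 in Nonrandom (1.28, SE 0.19, adjusted p = 0.0314). Without Nonrandom replicate 1 the calls of RPL35B (adjusted p = 0.162) and RPL1A (adjusted p = 0.127) were lost, and without replicate 2 those of RPL35A (0.0525), RPL35B (0.250) and RPL1A (0.354). With the DualLigation libraries in the fit, RPL41A alone kept its call, and with the first list of Nonrandom replicate 1 all 5 held.

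In 4N the same genes lay between the other preparations. RPL41A alone rose over Nonrandom (0.133% of all genes tested rose), with 5.87 and 4.29 normalised CPM in 4N and a log2 fold change of 2.11 (SE 0.30, adjusted p = 0.0403). The call was lost without 4N replicate 1 (adjusted p = 0.339) and without Nonrandom replicate 1 (0.651) or replicate 2 (0.332), and with the first list of Nonrandom replicate 1 (0.159). RPL35A had 15 and 7.53 in 4N and RPL1A 32.6 and 29, with changes of 1.33 and 0.51 that did not pass (adjusted p = 1.000 for both).

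Footprint libraries with equal replicate numbers deviated together, and with the replicate number as a block more members passed. In 4+3N over Nonrandom 35 members then rose and 5 fell (5.57% of all genes up and 3.74% down, 9.31% either way), and in 4N over Nonrandom 12 rose and 0 fell (1.05% up and 0.076% down, 1.12% either way). The further rises in 4+3N were small outside the 8 copies, at most 0.41 for RPL11A, and the falls were RPL37B, RPL40B, RPL30, RPL32 and RPL38, at −0.25 to −0.11. All 8 copies of RPL1, RPL4, RPL35 and RPL41 rose in this blocked fit, with RPL4A at 0.40 (adjusted p = 0.00535) and RPL4B at 0.44 (adjusted p = 0.00392).

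In mRNA the calls again lay in copies of RPL1, RPL35 and RPL41, with RPL1B among them, which had not passed in footprints (0.80 in 4+3N, adjusted p = 0.192). In mRNA of 4+3N over Nonrandom 6 members rose and 0 fell (0.222% of all genes changed), and in 4N over Nonrandom 4 rose and 0 fell (0.185%). RPL41B had 21.4 and 28.7 normalised CPM in 4+3N and 22.2 and 23 in 4N, against 2.18 and 0.871 in Nonrandom. Its log2 fold changes were 4.13 (SE 0.37) in 4+3N and 3.96 (SE 0.38) in 4N, over Nonrandom libraries with 5 and 3 reads. RPL41A rose by 3.15 (SE 0.39) in 4+3N and 3.08 (SE 0.39) in 4N. RPL35A had 92.1 and 102 in 4+3N and 72.9 and 85.2 in 4N, against 33.6 and 47.9 in Nonrandom, and rose by 1.22 and 0.90. RPL1B rose by 1.05 in 4+3N and 0.62 in 4N, and RPL1A and RPL35B each rose in 4+3N by 1.18. In every one of these genes both random preparations lay above both Nonrandom libraries. The 4N calls were less firm: that of RPL1B was lost without any 1 of the 4 libraries compared (adjusted p from 0.137 to 0.396), that of RPL35A without Nonrandom replicate 1 or either 4N library (0.156 to 0.366) and that of RPL41A without 4N replicate 1 (0.0740). With the replicate block 6 rose in 4+3N (0.24% of all genes) and 7 in 4N (0.295%), RPL1A, RPL36B and RPL39 being added in 4N.

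The spread between the standard libraries lay mostly in the 8 copies of RPL1, RPL4, RPL35 and RPL41. As this set was named after its values were seen, its contrast with the other members is a description only. Their coefficients of variation over the 6 standard footprint libraries ran from 22.5% to 95.2% with a median of 56.8%, and over the 6 mRNA libraries from 11.9% to 75.5% with a median of 37.1%. In the other 66 members the medians were 6.34% in footprints and 6.26% in mRNA, and the highest value was 15.4%. These coefficients also hold the spread between replicates of a preparation, as for RPL4A in 4N footprints with 144 and 80.2 CPM. The change of the footprint to mRNA ratio between 4+3N and Nonrandom was tested directly: 0 members and 3 of 5523 genes (0.0543%) passed, and 7 members had an unadjusted edgeR p under 0.05.

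**Figure D4:**
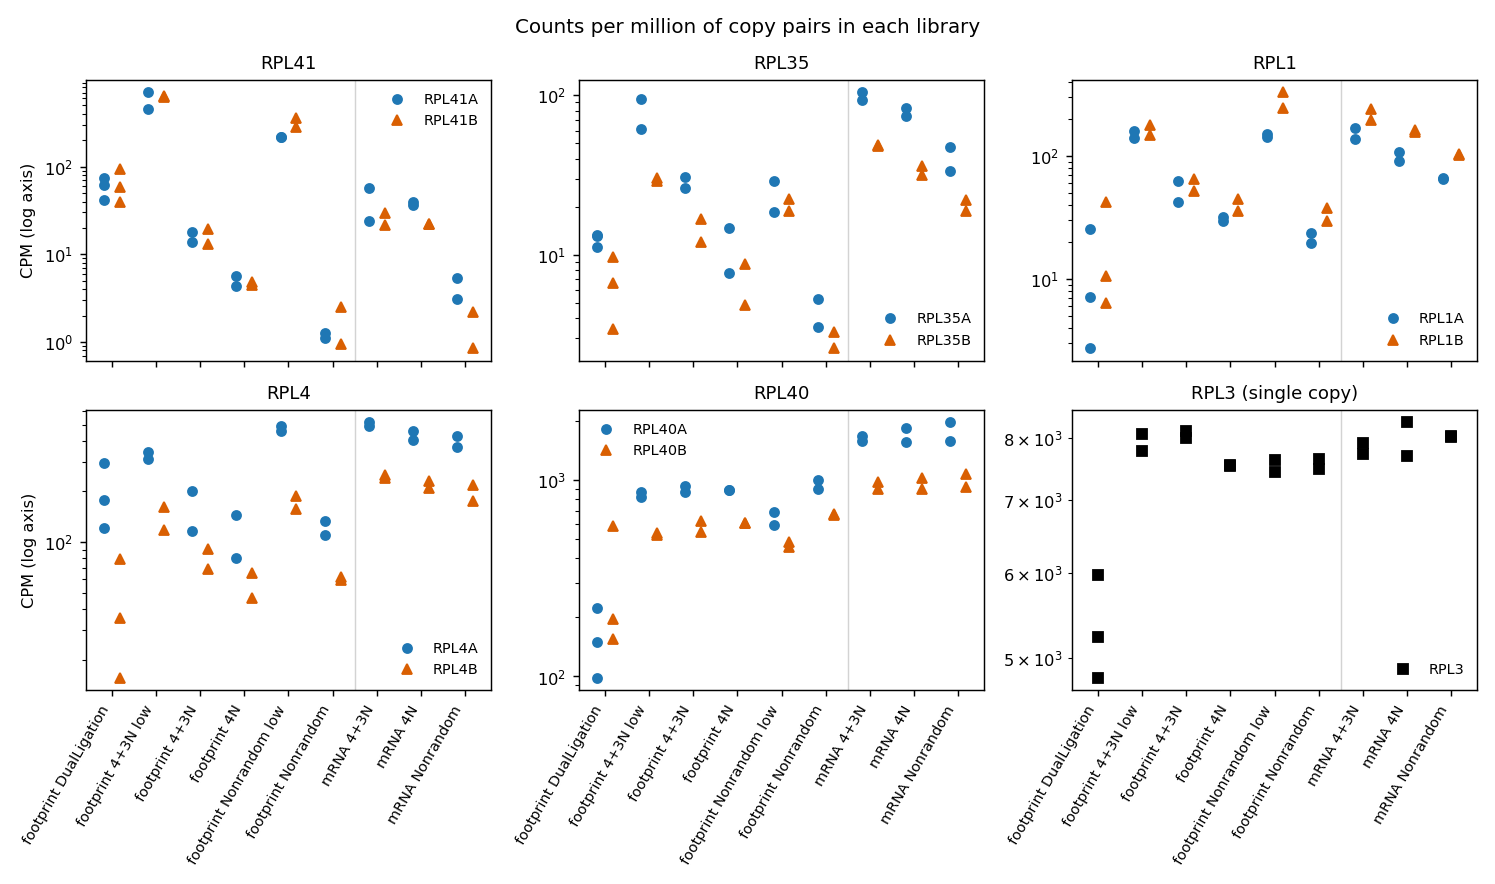
CPM of library totals, without TMM factors (log axes), are plotted for each library of each group, footprints left of the grey line and mRNA right of it, with circles for A copies, triangles for B copies and squares for the single-copy gene RPL3. RPL41, RPL35 and RPL1 are higher in 4+3N than in Nonrandom in both assays, RPL41 is highest in the low libraries, and RPL40 and RPL3 differ little between the standard footprint preparations.

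In the low libraries the same copies lay higher still: all 8 rose in Nonrandom low and 7 of 8 in 4+3N low. In Nonrandom low over Nonrandom 11 members rose and 13 fell, where 1.45% of all genes passed, 1.01% up and 0.445% down. RPL41A had 224 and 211 normalised CPM in Nonrandom low, against 1.09 and 1.18 in Nonrandom (7.56, SE 0.23, adjusted p = 3.77e-15). RPL41B had 371 and 279 in Nonrandom low, against 0.924 and 2.36 in Nonrandom (7.67, SE 0.22, adjusted p = 1.84e-15). RPL41 had the fewest reads of all 32 pairs in both Nonrandom libraries but not in either Nonrandom low library. RPL1B had 252 and 319 normalised CPM in Nonrandom low, against 36.9 and 27.9 in Nonrandom (3.14, SE 0.16), and RPL1A rose by 2.81. RPL35B and RPL35A rose by 2.80 and 2.49, and RPL4A and RPL4B by 2.02 and 1.57. The low libraries of these genes all lay above the standard ones, and their calls held with each library left out and with the first list of Nonrandom replicate 1. RPL11A and RPL9B also rose, by 0.53 and 0.45, but not with that list.

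The falls in Nonrandom low were small and lay in paired genes. RPL37B had 602 and 509.5 normalised CPM in Nonrandom low, against 869 and 822 in Nonrandom (−0.61, SE 0.11, adjusted p = 0.00331). RPL15A, RPL40A, RPL2B, RPL37A, RPL2A, RPL42B and RPL19A fell by 0.52 to 0.48 on the log2 scale, and RPL19B, RPL8B, RPL40B, RPL26A and RPL21B by 0.46 to 0.41. Single libraries decided these calls: without Nonrandom low replicate 2 only 1 fall passed and without replicate 1 only 5. Of the 8 largest, only RPL40A kept its call without Nonrandom low replicate 2 (its call was lost without replicate 1, adjusted p = 0.0821), and the other 7 then had adjusted p from 0.0556 to 0.275. RPL15A, RPL2B, RPL37A, RPL2A and RPL19A were also lost without Nonrandom replicate 1 (0.07 to 0.225), and RPL2A, RPL42B and RPL19A without Nonrandom low replicate 1 (0.0573 to 0.0739). With library totals, which moved the median of all genes to −0.06, 11 rose and 20 fell. With the first list of Nonrandom replicate 1, 8 rose and 0 fell, and the 8 largest falls turned to log2 changes of 0.27 to 0.45 that did not pass.

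In 4+3N low over 4+3N 12 members rose and 0 fell (0.734% of all genes changed, 0.657% up and 0.0773% down). RPL41B had 695 and 649 normalised CPM in 4+3N low, against 13.3 and 18.5 in 4+3N (5.39, SE 0.17, adjusted p = 1.27e-14), and RPL41A rose by 5.31 (SE 0.17). RPL1A had 171 and 146 in 4+3N low, against 62.6 and 40.2 in 4+3N (1.62, SE 0.18), and RPL1B rose by 1.59. RPL35A, RPL4A and RPL4B rose by 1.52, 1.16 and 0.93, and RPL35B did not pass (1.17, adjusted p = 0.0510). Outside the 8 copies RPL14A, RPL11A, RPL8A and RPL11B were among those that rose, by 0.59 to 0.44. Of these calls RPL4A was lost without either 4+3N low library (adjusted p = 0.190 and 0.122), RPL35A without replicate 1 (0.108), and RPL4B without replicate 2 (0.320). With library totals, which moved the median of all genes to −0.12, 11 rose and 4 fell, and with the first list of Nonrandom replicate 1 in the fit 5 rose and 0 fell, namely RPL1A, RPL1B, RPL35A, RPL41A and RPL41B. Depth was lower in the low libraries, and its part in these changes was not tested.

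The low change itself was compared between the preparations, as 4+3N minus Nonrandom. It differed for 5 members among 12 of 5174 genes (0.232%): RPL1A, RPL1B, RPL41A and RPL41B rose less in 4+3N, and RPL42B differed in the other direction. RPL41A had 486 and 731 normalised CPM in 4+3N low, against 14 and 17 in 4+3N, beside the Nonrandom values above. RPL11A rose in both preparations, and no difference between them passed. The difference was not tested with the first list of Nonrandom replicate 1. With that list RPL42B changed by 0.33 in Nonrandom low and 0.15 in 4+3N low, so the order of its changes was reversed. The copies of RPL1 and RPL41 still changed less in 4+3N low.

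In DualLigation 64.9% of the members changed, in both directions, a share close to that of all genes. Over the mean of 4+3N, 4N and Nonrandom 18 members rose and 30 fell, where 65.7% of all 5300 genes passed, 33.1% up and 32.6% down. The median was −0.21 over the members and −0.05 over all genes. With library totals the median of all genes moved to −0.71, and 10 members rose and 39 fell. With the first list of Nonrandom replicate 1, 13 rose and 4 fell, and 31 of the 48 calls were lost. In raw CPM 11 members lay above the mean of the standard libraries in all 3 DualLigation libraries, 45 lay below it in all 3, and 18 were mixed. These counts, and those with library totals or the first list, have no share of all genes beside them. They are not read as a result about the members. Across members the log2 ratios of replicates 2 and 3 correlated at 0.94 (Pearson), and those of replicate 1 with them at 0.89 and 0.83, as a description over genes.

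RPL41A and RPL41B rose most. RPL41A had 84.4, 61.6 and 92.9 normalised CPM in DualLigation, against 0.963, 4.34 and 15 in the lowest, median and highest of the 6 standard libraries (4.34, SE 0.18, adjusted p = 1.56e-06). RPL41B rose by 4.32 (SE 0.26, adjusted p = 6.35e-06). Next came RPL23B, whose product lies at the face that meets the small subunit, with 8852, 2316 and 2267 normalised CPM in DualLigation, against 645, 838 and 942 in the standard libraries (2.46, SE 0.41, adjusted p = 0.000917). The value of replicate 1 was nearly 4 times that of the others. RPL31A at the tunnel exit had 5692, 5287 and 4811 in DualLigation, against 1020.4, 1124 and 1234 in the standard libraries (2.23, SE 0.10, adjusted p = 2.39e-06), and its replicates were close. RPL26B, RPL17A, RPL36B and RPL4A rose by 1.52, 1.41, 1.31 and 1.24, and RPL4A did not pass with library totals (0.62, adjusted p = 0.0963).

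The largest fall was that of RPL29. It had 122, 53.6 and 34.6 normalised CPM in DualLigation, against 1009.5, 1110.2 and 1211 in the standard libraries (−3.99, SE 0.42, adjusted p = 7.85e-05). All DualLigation libraries lay at least 8-fold below every standard one. RPL40A had 257, 218 and 149 in DualLigation, against 732, 783 and 832 in the standard libraries (−1.91, SE 0.18, adjusted p = 5.03e-05). RPL27A, RPL2B, RPL19A, RPL33A, RPL16A and RPL20B fell by 1.88 to 1.48 on the log2 scale, and these 6 did not pass with the first list of Nonrandom replicate 1. Of the single-copy genes RPL5 rose (1.17, SE 0.16), RPL29, RPL32 (−1.26), RPL10 (−0.99) and RPL30 (−0.81) fell, and 5 did not pass. RPL5 did not pass with library totals (0.55, adjusted p = 0.0554), and of these 5 calls RPL29 alone held with the first list. Of the genes that did not pass, RPL28 ran from 2584 to 7413 normalised CPM and RPL38 from 853 to 3008 across the DualLigation libraries.

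Copies of several pairs moved apart in DualLigation, in examples chosen after their values were seen. RPL31A rose and RPL31B fell (−0.44), RPL26B rose and RPL26A fell (−1.11), RPL17A rose and RPL17B fell (−0.97), and RPL36B rose and RPL36A fell (−1.21). With the first list the 4 rises held and the 4 falls did not pass. The log2 ratio of A to B was 4.47 ± 0.28 for RPL31 in DualLigation (SD, n = 3), against 1.77 ± 0.06 in the 6 standard libraries. For RPL26 it was −3.49 ± 0.06 in DualLigation, against −0.87 ± 0.05 in the standard libraries, and for RPL37 −2.32 ± 0.81 in DualLigation, against 0.51 ± 0.24 in the standard libraries. RPL37 was thus led by B in DualLigation and by A in the standard libraries. These ratios were not tested. The number of DualLigation calls was 62 without replicate 1 and 43 without replicate 2.

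**Figure D5:**
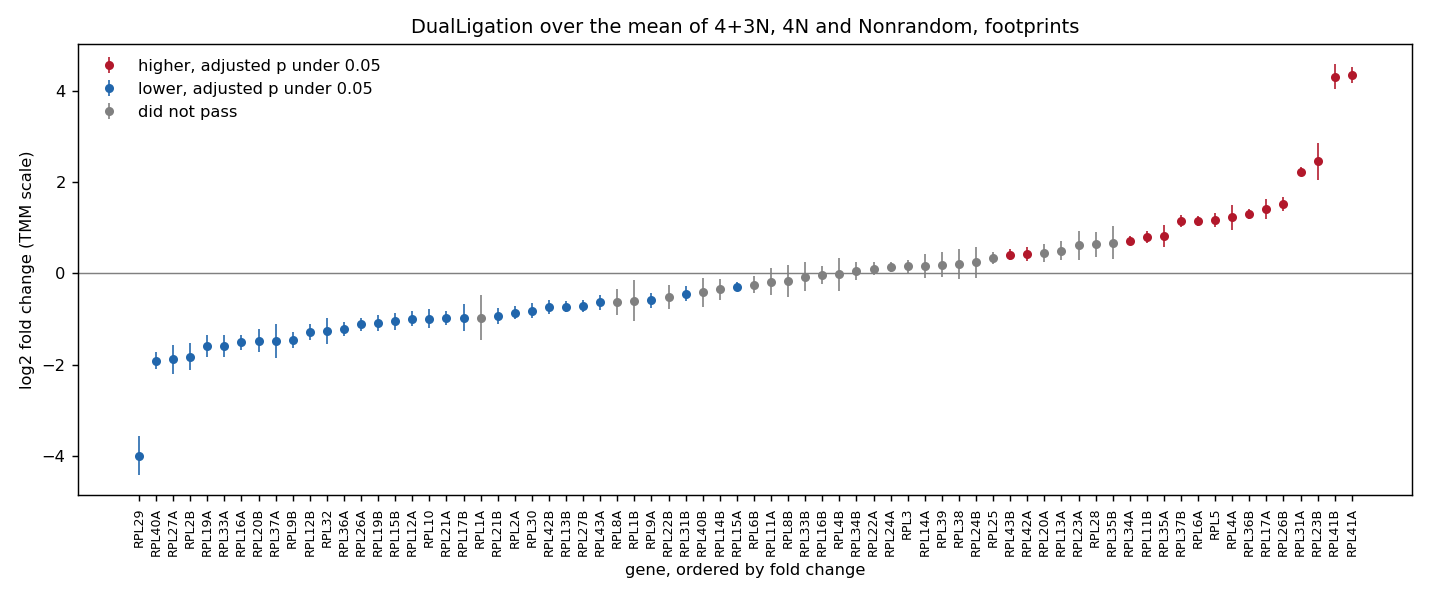
The log2 fold change of DualLigation over the mean of 4+3N, 4N and Nonrandom footprints (TMM scale) is plotted for 72 of the genes in order, with bars for the standard error and colour for the edgeR call. RPL41A and RPL41B lie highest at 4.34 and 4.32, and RPL29 lies lowest at −3.99.

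Other genes of the pathway gave a frame for the ratio of footprints to mRNA. The genes of the small subunit (RPS) rose in 37 of 56 cases and fell in 10, with a median of 0.36. Of all genes 40.2% rose and 44.5% fell. These counts and those of the other gene sets below were made under TMM and with the second list of Nonrandom footprint replicate 1 only. How far they hold with library totals or the first list is not given here. Factors of late maturation and export of the large subunit rose in 7 of 9 cases and fell in 0, with a median of 0.81, led by RLP24 at 1.53 (SE 0.06) and LSG1, a GTPase that acts with NMD3, at 1.11 (SE 0.05). Dedicated chaperones of large-subunit proteins rose in 4 of 7 cases and fell in 1; SQT1, the chaperone of RPL10, rose by 0.38 (SE 0.05), and ACL4, the chaperone of RPL4, stood at 0.04 (adjusted p = 0.454). Among regulators of ribosomal protein genes 3 of 6 rose and 2 fell: RAP1 by 0.68 (SE 0.07), whereas FHL1, which binds the same promoters, changed by −0.40 (SE 0.07) and its corepressor CRF1 by −4.10 (SE 0.20).

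Between the standard preparations, without the replicate block, these lists changed in 1 gene of the small subunit in footprints of 4+3N and in no other case. The lists were not counted in the blocked fits. Of the 6 regulators, 5 were tested in these footprint fits and in the low comparisons. In Nonrandom low 0 RPS genes rose and 8 fell, where 1.01% of all genes rose and 0.445% fell. In 4+3N low 3 rose and 2 fell, where 0.657% of all genes rose and 0.0773% fell. In DualLigation 23 of 56 RPS genes rose and 21 fell, and of the 9 late factors 5 rose and 4 fell, from −1.72 (SE 0.13) for MRT4 to 2.94 (SE 0.15) for NMD3. Of all genes 33.1% rose and 32.6% fell there. Regulators, chaperones and late factors gave 0 calls in either low comparison.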

How the data were processed

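The authors deposited 1 table of read counts per gene for each of 19 libraries. Per the submitters' processing notes CASAVA 1.8, Bowtie 1.0.0 and sacCer3 were used. Strand, gene assignment and the handling of reads with several alignments are not given in the sources used here. Gene names came from RefSeq's R64 table, which matched 5754 of 5758 IDs. Genes not listed in a library were set to 0, and where 1 table listed genes again the second list was used, whose correlation with replicate 2 was 0.997 (0.959 for the first). Total counts were 827353 to 13478946 per library, so that 3 reads stand for 0.223 to 3.63 CPM, limits that cover counting error only.

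Counts were tested with edgeR 4.0.16 in R 4.3.3: TMM factors, filterByExpr, quasi-likelihood tests and Benjamini-Hochberg adjustment over all genes tested, called at an adjusted p under 0.05. Footprints were set against mRNA over the 3 preparations in 12 libraries. Preparations were fitted within 6 footprint or 6 mRNA libraries, low against standard within 8 libraries and DualLigation within 9. The log2 ratio of A to B reads (0.5 added to each, 10 reads or more per copy in every library) was tested by exact permutation in Python 3.11.15 (pandas 2.3.3, numpy 2.4.6). Scripts were tested on simulated data. The alternatives were RLE size factors, library totals, no filter, DESeq2 1.42.0, the replicate number as a block, the first count list, DualLigation in the preparation fit and each library left out. Apart from the edgeR fits with a replicate block, counts of calls under these alternatives are given without the share of all genes or pairs. Added after seeing the data were DualLigation replicate 1 alone, summed copies, tests of differences between preparations, counts without the 8 copies of RPL1, RPL4, RPL35 and RPL41, and the limit of 0.2 for A to B ratios.

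The replicate numbers pair libraries within an assay: deviations from group means of equal numbers correlated at 0.457 to 0.577 in standard footprints and at 0.156 to 0.364 in mRNA, in 3 of 3 pairs each. Named were the single-copy genes, pairs with known structural roles, up to 8 members with the largest called rise and fall per comparison, and the 5 pairs at the extremes of A to B ratio or of its difference. Members and lists were chosen with earlier results of these data known. Counts include all 74 members, but 1 of them is not reported by name here, and figures leave out its pair.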

Additional observations from a re-analysis of the deposited data

Results flagged for a closer look

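The change of low over standard libraries differed between the preparations for 5 members, by a test of the difference itself in the same edgeR fit (4+3N minus Nonrandom, Benjamini-Hochberg adjustment over 5174 genes, n = 2 per group). RPL41B rose less in 4+3N, by −2.28 on the log2 scale (adjusted p = 0.00156), and RPL41A by −2.25 (adjusted p = 0.00300). RPL1B differed by −1.55 (adjusted p = 0.00114) and RPL1A by −1.19 (adjusted p = 0.0431). RPL42B differed the other way, by 0.64 (adjusted p = 0.0431). Its changes were 0.15 in 4+3N low, where it did not pass, and −0.49 in Nonrandom low. With the first list of Nonrandom replicate 1 they were 0.15 and 0.33, neither passed, and their order was reversed. The difference itself was not tested with that list for any of the 5 members.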

How the results depend on the processing

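Of 1179 recomputed values for 77 named results, 1114 kept direction and call, 57 kept direction and lost the call and 8 reversed. These 8 were falls in Nonrandom low with the first count list of Nonrandom footprint replicate 1: RPL37B 0.27, RPL15A 0.44, RPL40A 0.29, RPL2B 0.42, RPL37A 0.45, RPL2A 0.41, RPL42B 0.33 and RPL19A 0.44. With that list members called numbered 18 for footprints over mRNA (17 at 1.5-fold), 0 for 4N footprints, 8 for Nonrandom low, 5 for 4+3N low and 17 for DualLigation. Library totals gave 28 members at 1.5-fold for footprints over mRNA. For 4N over Nonrandom footprints DESeq2 called 2, and with DualLigation in the fit 0 were called there and 1 in 4+3N. The replicate block called 12 in 4N footprints, 40 in 4+3N footprints and 7 in 4N mRNA. The low libraries and the 2 assays are not shown to be paired by number (correlations from 0.0392 to 0.280, and from −0.0363 to 0.186), and there the block called 43 in Nonrandom low (3.83% of all genes) and 24 in 4+3N low (2.61%). It changed the counts by over 1.5 times in no other comparison. With 1 library left out, calls ranged from 0 to 2 in 4N footprints, 2 to 5 in 4+3N footprints, 1 to 4 in 4N mRNA, 11 to 26 in Nonrandom low, 6 to 14 in 4+3N low, 64 to 67 for footprints over mRNA, 43 to 62 for DualLigation and 22 to 24 for A to B pairs, where a lone library is assumed to vary like the others. The cause of these shifts was not tested. Depth limits RPL41 most, with 3 to 22 reads of a copy in Nonrandom libraries.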
